A study of Mus musculus with 8 samples.

Results

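The Akr1c cluster of mouse chromosome 13 holds genes for aldo-keto reductases, and the 8 genes Akr1c6, Akr1c12, Akr1c13, Akr1c14, Akr1c18, Akr1c19, Akr1c20 and Akr1c21 were followed in liver. They were found by the gene name given for each probe of the array, which returned 9 of 55681 probes, with 2 probes for Akr1c20 and 1 for every other gene. Akr1c18 was more than 5 log2 units higher in NZO than in B6 liver and Akr1c19 about 2 units higher, while the remaining tested probes of the cluster differed by less than 0.7 units. The cluster was chosen by the difference of Akr1c18 between these same arrays, so the strain differences of the 8 genes describe that choice and carry no test here. RNA came from 4 NZO/HiBomDife mice, an obese and diabetes-prone inbred strain, and from 4 C57BL/6 (B6) mice, a lean strain that resists diabetes. All 8 animals were males of 6 weeks, and both strains received the same diet with 45% fat. Each mouse had 1 array, and mice are named by strain and number. The comparison therefore asks how the transcripts of the liver differ between an obese and a lean strain at a young age. Every other difference between the genomes of the strains is part of it as well.

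Aldo-keto reductases use a nicotinamide cofactor to turn ketones and aldehydes into alcohols, or the reverse. Those of the 1C subfamily act mainly on steroid hormones, prostaglandins and bile acid intermediates, and several also take up foreign carbonyl compounds in the liver. The best known of the mouse enzymes is that of Akr1c18, which reduces progesterone to a hydroxylated form with little hormonal activity, and its gene in the ovary is held down by prolactin through Stat5 until the end of pregnancy.

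On the mouse assembly GRCm38 the 8 genes lie on chromosome 13 within 538 kb, from base 4048991 to base 4586543. Their order is Akr1c14, Akr1c18, Akr1c13, Akr1c19, Akr1c12, Akr1c6, Akr1c20 and Akr1c21. Akr1c12 and Akr1c6 are separated by 155 kb, so that the first 5 genes form a group of their own and the last 3 another. Both genes with a large strain difference, Akr1c18 (4132615 to 4150646) and Akr1c19 (4233503 to 4248361), belong to the first group, and Akr1c13 (4191168 to 4205604) lies between them.

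Genes of such a cluster are close copies, and a probe could in principle pick up a neighbour's transcript. The start of the probe is therefore shown for Akr1c18, for Akr1c13 and Akr1c12, which lie on either side of Akr1c19 and whose values differed between the strains in opposite directions, and for Akr1c20, whose 2 probes disagreed. The array files give each probe as 60 bases, and its first 30 are printed.
Akr1c18 probe: ccaatcactgcttagcaactcacccccagt
Akr1c13 probe: tgtgtggacagtgatgctggcaatatgacc
Akr1c12 probe: agtaagctattggattactgcaagtcaaaa
Akr1c20 probe A_51_P276802: tgcccgaaatacattgttgatagtcctata
Akr1c20 probe A_51_P382764: gaggaccatcctgattttccatttttggat
Over all 36 pairs of the 9 whole probes, the longest run of bases that any pair shared was 11, between Akr1c6 and the probe A_51_P382764 of Akr1c20. The next longest was 9 and the median was 6. The probes start at different positions of their transcripts, from 640 for Akr1c12 to 2101 for Akr1c14. Runs shared between probes therefore cannot show whether a probe picks up a neighbour's transcript. How the probes match the full transcripts of the other genes was not analysed here. Nor was it analysed whether the sequence of NZO differs under any probe named in this report. Signals read at a single probe carry that limit.

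The values are log2 intensities relative to the 75th percentile of each array, so that 0 is the level below which 75% of the spots on that array lie. They compare mice for a given probe, and levels of different probes are not compared. Spots were read as above background where the scanner software marked them so, and 50.4% to 55.0% of the spots on NZO arrays and 53.1% to 60.1% on B6 arrays were. Precision is limited by the small number of arrays, 4 in each strain. Because whole liver was measured, fewer cells of a type and less RNA per cell cannot be told apart.

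Akr1c18, at mm9 chr13:4131895-4131954 on the minus strand, was above background on all 8 arrays. Its level in NZO was 4.81 in mouse 003, 4.58 in 007, 4.83 in 009 and 4.52 in 011. In B6 it was -1.89 in mouse 009, -1.23 in 010, -1.28 in 011 and 0.57 in 015. The strains did not overlap, since the lowest NZO mouse lay far above B6 015, the highest of its strain. The means were 4.69 ± 0.16 in NZO and -0.96 ± 1.06 in B6 (SD, n = 4 each). The difference of 5.64 (standard error 0.46 from the limma fit over all probes) corresponds to a 49.9-fold higher signal in NZO. Before scaling, the processed signal of this probe ran from 2722 to 4047 in NZO and from 42.1 to 202.2 in B6. Its raw median was 109 to 160 times the local background in NZO, against 2.70 to 4.05 times in 3 of the B6 mice and 11 times in B6 015. The spread within B6 thus came mainly from B6 015, and the 3 other B6 mice averaged -1.46 ± 0.37 (SD, n = 3). Without B6 015 the difference was 6.15, and over all mice left out in turn it lay between 5.33 and 6.15.

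Akr1c19 encodes a reductase with a broad range of substrates, and its probe lies at mm9 chr13:4247522-4247581 on the plus strand. Its level was 5.21 in NZO 003, 5.05 in 007, 4.86 in 009 and 5.31 in 011. The B6 mice were nearly equal, at 3.07 in 009, 3.07 in 010, 3.07 in 011 and 3.02 in 015. All NZO mice were above all B6 mice, and B6 015, the highest of its strain for Akr1c18, was the lowest for Akr1c19. The mean was 5.11 ± 0.20 in NZO and 3.06 ± 0.03 in B6 (SD, n = 4 each). NZO was thus 2.05 higher on the log2 scale (standard error 0.11), or 4.14-fold, and between 1.98 and 2.13 higher when each mouse was left out.

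Akr1c13 and Akr1c12 code for close relatives of Akr1c19 that reduce aldehydes and ketones. The Akr1c13 probe (mm9 chr13:4204668-4204727, plus strand) read 6.67, 6.11, 6.28 and 6.43 in NZO 003, 007, 009 and 011. It read 5.78, 5.73, 5.82 and 5.80 in B6 009, 010, 011 and 015. The strains did not overlap, and the NZO mice were spread more widely than the B6 mice. The means of 6.38 ± 0.24 and 5.78 ± 0.04 (SD, n = 4 each) put NZO higher by 0.59 (standard error 0.13), or 1.51-fold.

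The Akr1c12 probe (mm9 chr13:4272198-4272257, minus strand) went the other way. It read 3.24, 2.64, 2.90 and 3.22 in NZO 003, 007, 009 and 011, and 3.50, 3.53, 3.44 and 3.35 in B6 009, 010, 011 and 015. NZO 007 stood lowest, and the strains came close without overlapping. The difference was -0.46 (standard error 0.15), with means of 3.0 ± 0.29 in NZO and 3.46 ± 0.08 in B6 (SD, n = 4 each).

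Akr1c14, whose enzyme reduces and oxidises steroids at the first ring and takes part in bile acid synthesis, also read lower in NZO. Its probe (mm9 chr13:4089325-4089383, plus strand) gave 3.83, 3.11, 3.73 and 3.61 in NZO 003, 007, 009 and 011. The B6 mice 009, 010, 011 and 015 gave 4.03, 4.24, 4.25 and 4.07. NZO 007 was again the lowest, and the strains did not overlap. The means were 3.57 ± 0.32 and 4.15 ± 0.12 (SD, n = 4 each), a difference of -0.58 (standard error 0.16). In the deposited table taken as given, this difference was -0.76 and passed the thresholds used for a call.

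Akr1c6 codes for a hydroxysteroid dehydrogenase of liver that acts on sex steroids, and its signal did not separate the strains. Its probe (mm9 chr13:4456428-4456487, plus strand) had means of 9.67 ± 0.09 in NZO and 9.66 ± 0.08 in B6 (SD, n = 4 each). All 8 mice lay between 9.54 and 9.73, and the difference was 0.01 (standard error 0.09).

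Akr1c20, which codes for another hydroxysteroid dehydrogenase, had 2 probes that gave different pictures. The probe A_51_P382764 (mm9 chr13:4486408-4486467, minus strand) averaged 6.99 ± 0.14 in NZO and 6.97 ± 0.09 in B6 (SD, n = 4 each), a difference of 0.02 (standard error 0.11). The probe A_51_P276802 (mm9 chr13:4506828-4506887, minus strand) read -0.57, -0.85, -0.76 and -0.33 in NZO 003, 007, 009 and 011, and 0.31, 0.21, -0.08 and -0.40 in B6 009, 010, 011 and 015. B6 015 fell among the NZO mice, so the strains overlapped. The difference at this probe was -0.64 (standard error 0.18), with means of -0.63 ± 0.23 and 0.01 ± 0.32 (SD, n = 4 each). It passed the thresholds used for a call without B6 015 (-0.78) and without NZO 011 (-0.74), and not with all 8 mice. Both probes were assigned to Akr1c20 by the symbol in the files and not by a transcript, and which transcripts each one measures was not tested.

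Akr1c21, which codes for a hydroxysteroid dehydrogenase known from kidney, was hardly detected. Its probe (mm9 chr13:4585696-4585755, plus strand) was above background on 0 of 4 NZO arrays and on 2 of 4 B6 arrays, so it did not enter the comparison across all probes. It read -5.82, -5.26, -5.72 and -5.98 in NZO 003, 007, 009 and 011, and -4.57, -2.99, -3.75 and -4.93 in B6 009, 010, 011 and 015. All B6 mice lay above all NZO mice, but the NZO values are not levels above background. No fold is given, since 2 of the B6 values are not above background either.

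**Figure D1:**
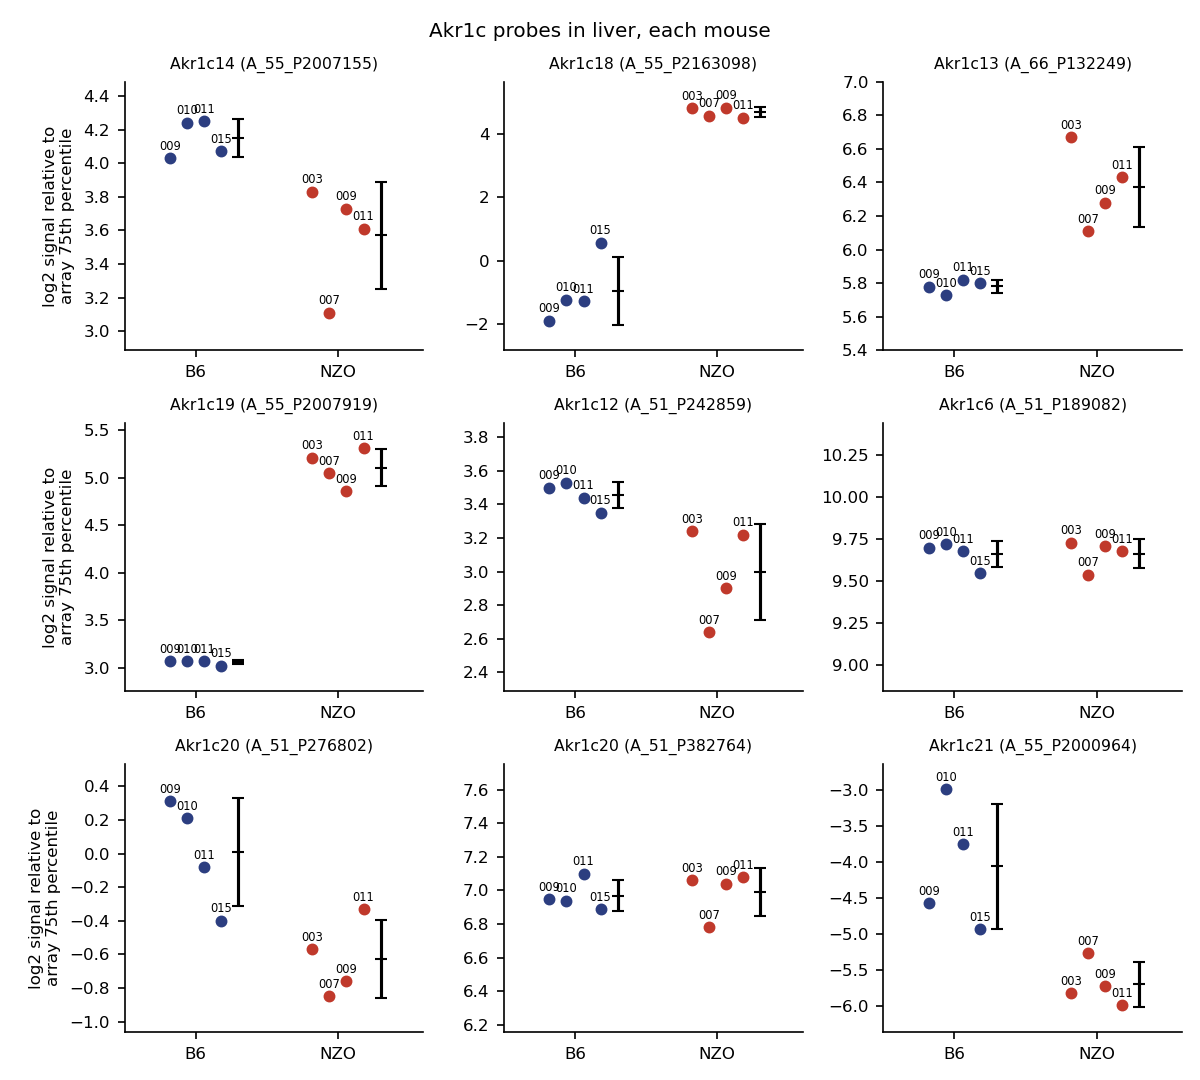
Log2 signal, scaled by the 75th percentile of its array, for each of the 9 Akr1c probes, with a point for each mouse (B6 in blue, NZO in red, labelled by number) and a black bar for the strain mean ± SD (n = 4); the y axes differ between panels, and the NZO spots of Akr1c21 were not above background. All NZO points of Akr1c18 lie between 4.52 and 4.83 and all B6 points between -1.89 and 0.57, whereas those of Akr1c6 overlap.

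A probe was called where limma's adjusted p over all 27639 tested probes was at most 0.05 and the log2 difference at least 0.7 in size. Of the 8 tested Akr1c probes, Akr1c18 and Akr1c19 were called higher in NZO and 0 were called lower. At an unadjusted limma p of 0.05 and any size, 3 read higher and 3 lower, and the test named in the methods, a comparison of means with unequal variances, gave the same counts of 3 and 3 at its unadjusted p and of 2 and 0 as calls. Across the array, 4.33% of tested probes were called higher and 5.28% lower. The strains did not overlap at 5 of the 8 Akr1c probes, those of Akr1c12, Akr1c13, Akr1c14, Akr1c18 and Akr1c19, and at 22% of all tested probes. These 5 genes are the first 5 in order along the chromosome. As the contrast that gives these counts also chose the cluster, they are a description only.

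**Figure D2:**
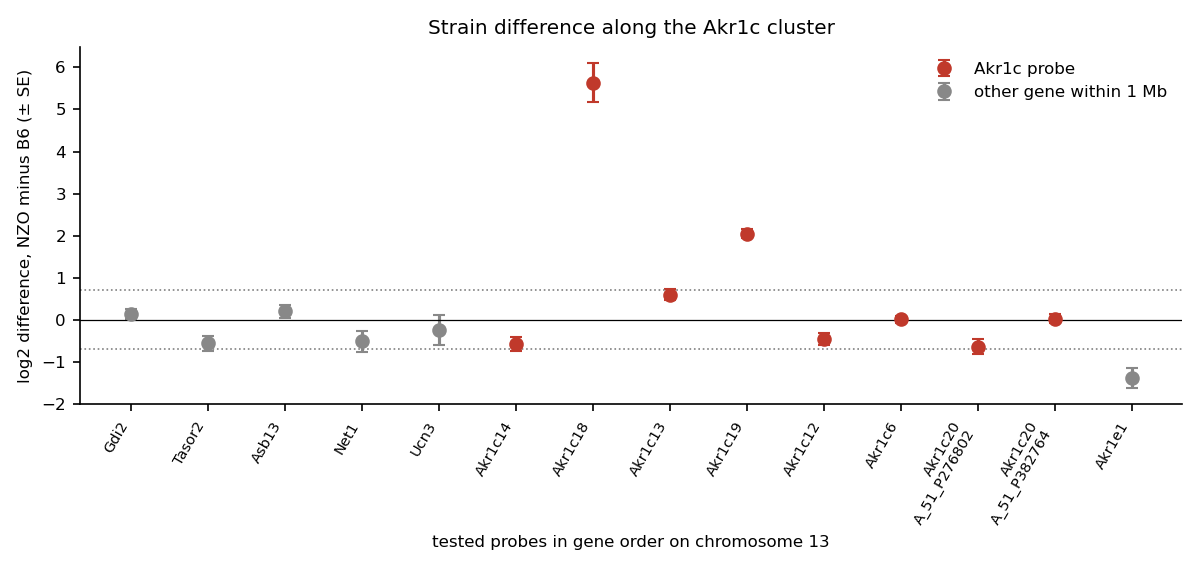
Log2 difference, NZO minus B6, with its standard error, for tested Akr1c probes (red) and other tested genes within 1 Mb (grey), in gene order on chromosome 13 and not to scale; dotted lines mark 0.7 in either direction. Akr1c18 at 5.64 and Akr1c19 at 2.05 stand on either side of Akr1c13 at 0.59, and Akr1e1 at the far end lies at -1.39.

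Mice of a strain also differed among themselves, and some genes of the cluster moved together. Deviations from the strain means were correlated over the 8 arrays, as a description, since all probes of an array share its scaling. For Akr1c12 and Akr1c13 Pearson's r was 0.85, for Akr1c14 and the probe A_51_P382764 of Akr1c20 it was 0.86, and for Akr1c6 and Akr1c14 it was 0.80. All 21 pairs without Akr1c18 gave a positive r, from 0.13 to 0.86. The 7 pairs with Akr1c18 gave r from -0.77 to 0.09, and B6 015 has the largest deviation of Akr1c18. NZO 007 was the lowest NZO mouse at every tested probe of the cluster except those of Akr1c18 and Akr1c19. How far the positive r rest on that mouse was not tested.

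RefSeq's promoter table (GRCm38.p6, the reference assembly of C57BL/6J) holds 7 of the 8 genes, and the 250 bases before the start it uses were read for each. The sequence of NZO was not analysed here. That start is not always the outer bound of the gene given above. The window lies outside the gene for Akr1c12, Akr1c18 and Akr1c21, reaches 19 bases into it for Akr1c13 and 32 bases for Akr1c6, and lies inside it over 237 bases for Akr1c19 and over all 250 bases for Akr1c14. The windows are shown for 3 genes of the first group with different strain differences, at chr13:4150647-4150896 (minus strand) for Akr1c18, chr13:4190937-4191186 (plus strand) for Akr1c13 and chr13:4279400-4279649 (minus strand) for Akr1c12. They run 5′ to 3′ along the gene, and capitals mark the letters CCATTAG.
Akr1c18 upstream: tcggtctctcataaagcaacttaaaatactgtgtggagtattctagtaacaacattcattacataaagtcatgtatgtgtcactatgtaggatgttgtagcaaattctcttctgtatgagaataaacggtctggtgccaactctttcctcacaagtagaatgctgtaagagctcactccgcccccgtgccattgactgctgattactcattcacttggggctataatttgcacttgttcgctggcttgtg
Akr1c13 upstream: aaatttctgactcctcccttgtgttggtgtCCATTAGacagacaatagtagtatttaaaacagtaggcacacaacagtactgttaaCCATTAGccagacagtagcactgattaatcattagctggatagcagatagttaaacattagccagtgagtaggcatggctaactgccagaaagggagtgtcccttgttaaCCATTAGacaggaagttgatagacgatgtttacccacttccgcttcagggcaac
Akr1c12 upstream: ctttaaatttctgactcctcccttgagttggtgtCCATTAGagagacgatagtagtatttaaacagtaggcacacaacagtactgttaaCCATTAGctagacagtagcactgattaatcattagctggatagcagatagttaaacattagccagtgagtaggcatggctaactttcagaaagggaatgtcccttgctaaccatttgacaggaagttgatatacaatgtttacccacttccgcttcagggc
The letters CCATTAG, counted on either strand, occurred 3 times in the window of Akr1c13, 2 times in those of Akr1c19 and Akr1c12 and once in that of Akr1c21. They did not occur in the windows of Akr1c18, Akr1c6 and Akr1c14. Of 32851 windows of this length in the table, 1.73% held them and 0.0274% held 2 or more copies. This string was picked after the windows had been read, and it was not matched to any factor. In this C57BL/6J reference the windows of Akr1c12 and Akr1c13 were identical at 235 of 247 aligned positions (95.1%). NZO read lower for Akr1c12 and higher for Akr1c13, and whether these bases bear on that was not tested.

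Letters for known elements were also searched on both strands. TTCNNNGAA, the core to which STAT5 binds, was found once, in the window of Akr1c19, and in 7.02% of all windows. It is in capitals in the last 30 bases of that window (chr13:4233710-4233739, plus strand), which lie inside the outer bounds of the gene.
Akr1c19, end of window: tgactgTTCCACGAAgggtgcaggagcagc
TATAAA was found in the window of Akr1c6 (12.4% of all windows), and CCAAT in those of Akr1c6, Akr1c14 and Akr1c19 (33.8%). TGACNNNGC, the core of the antioxidant response element, and TGANTCA, the AP-1 site, were found in none of the 7 windows and in 10.2% and 6.75% of all windows. The window of Akr1c18 held none of these 5, which says only that the letters are not in these 250 bases.

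Among the 41 other genes within 1 Mb of the cluster, 13 were on the array and 6 were tested. Akr1e1, an aldo-keto reductase gene 5 kb beyond Akr1c21 (4591123 to 4609164 on GRCm38), was the only one called, and it was lower in NZO. Its level was 1.27, 2.01, 1.66 and 0.82 in NZO 003, 007, 009 and 011, and 2.93, 2.77, 2.95 and 2.67 in B6 009, 010, 011 and 015. The strains did not overlap, and the difference was -1.39 (standard error 0.24, limma adjusted p = 0.00567). The call was lost with the slide as a fixed term, within scan day 2, with the mouse number as a block and by the adjusted test of the methods, and without NZO 009 there were 2 called neighbours. The other 5 were not called, with 0.13 for Gdi2, -0.56 for Tasor2, 0.20 for Asb13, -0.51 for Net1 and -0.24 for Ucn3. The median over the 6 genes was -0.38, against 0.03 over the 20134 genes read at their brightest probe. Of those genes 4.42% were called higher and 5% lower. At an unadjusted limma p of 0.05, 0 neighbours were higher, as in the test of the methods, and 2 were lower.

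The aldo-keto reductases outside the 1C subfamily act on sugars, aldehydes and other carbonyl compounds or, as Kcnab proteins, belong to potassium channels. Of 12 listed, 7 were tested, of which Akr1e1 was called lower (14.3%, against 5% of all genes) and 0 were called higher (against 4.42%). At an unadjusted p of 0.05, limma and the test of the methods each gave 0 higher and 2 lower. The difference was 0.10 for Akr1a1, which reduces many aldehydes, 0.18 for Akr1d1, the steroid reductase of bile acid synthesis, and 0.15 for Akr7a5. For Akr1b3, the aldose reductase, it was 0.19 and 0.15 at its 2 probes. Akr1b8 read lower by -0.42 and Akr1b10 by -0.26 and -0.34 at its 2 probes, with limma adjusted p from 0.0795 to 0.253, so neither was called. Akr1cl and Kcnab2 were above background on 0 of 8 arrays, and Akr1b7, Kcnab1 and Kcnab3 on too few to be tested. The median of the list was 0.10.

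Other enzymes that act on steroids include the hydroxysteroid dehydrogenases of further families and the steroid reductases. Of 24 listed genes 21 were tested, 3 were called higher (14.3%, against 4.42% of all genes) and 1 lower (4.76%, against 5%), with a median of 0.09. At an unadjusted p of 0.05, limma and the test of the methods each gave 6 higher and 2 lower. When the probes of each gene were averaged 3 were lower, and probes disagreed for Srd5a1 (-0.25 at the brightest, -4.93 at the other), Hsd17b13 (0.10 and -1.97) and Hsd3b2 (0.13, 2.04 and -0.17). Hsd3b1, of the family that makes progesterone from pregnenolone, read -2.0, -1.40, -1.66 and -2.54 in NZO 003, 007, 009 and 011, while B6 was above background on 0 of 4 arrays. The NZO signal was at least 5.25-fold higher, taking for each B6 array the lowest level that any probe above background had on it. It passed the filter through NZO alone, so its place among the 3 higher genes supports nothing. The difference of the measured means was 4.06, and it was 0.84 after normexp and 1.15 in the deposited table, both below that bound, while with the mouse number as a block it was not called. Hsd17b7, which also acts in cholesterol synthesis, was higher by 1.46 (standard error 0.15, limma adjusted p = 0.000371), and its other probes gave 1.1 and 1.11. Hsd3b4 was higher by 1.29 (standard error 0.20, limma adjusted p = 0.00358). The calls of Hsd17b7 and Hsd3b4 were lost with the slide as a fixed term, within scan day 2 and with the mouse number as a block, and that of Hsd3b4 also after normexp. Hsd17b6, which oxidises androgen metabolites, was lower by -1.22 (standard error 0.32, limma adjusted p = 0.0366). In B6 015 it stood at 3.69, above the 2.69 to 2.77 of the other B6 mice, and its call was lost in 13 of 21 other settings. These values set the strain difference of Akr1c18 beside those of genes for related steps, and no test compared them.

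Prolactin and growth hormone act through Stat5, and 16 genes of their receptors, signalling and steroid receptors were listed. Of 14 tested, 2 were called higher in NZO (14.3%, against 4.42% of all genes) and 0 lower (against 5%), and the median was 0.29. At an unadjusted p of 0.05, limma gave 5 higher and 0 lower, and the test of the methods 4 and 0. As calls, the test of the methods gave 1 higher and 0 lower. Of the 2 genes called higher by limma, 1 passed the filter through NZO alone, so its place in the count supports nothing. Prlr, the prolactin receptor, was higher, at 3.55 ± 0.29 in NZO and 2.27 ± 0.34 in B6 (SD, n = 4 each; difference 1.28, standard error 0.21, limma adjusted p = 0.0041). Its second probe gave 1.27, and the call was lost with the slide as a fixed term, within scan day 2 and with the mouse number as a block. Stat5b differed by -0.02, and Socs2, a target of Stat5, by 2.49 (standard error 0.74, limma adjusted p = 0.0611), with wide spread in B6 (0.26 ± 1.67, SD, n = 4). Pgr, the progesterone receptor, was not tested because it was not above background on all arrays of a strain.

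The 3 remaining lists cover prostaglandins, bile acids and the response to foreign compounds and oxidative stress, and their counts stand against 4.42% of all genes called higher and 5% lower. Of 14 tested genes of prostaglandin synthesis and breakdown 0 were called, while 2 were higher and 2 lower at an unadjusted p of 0.05 by limma and by the test of the methods (median 0.05). In this list 2 genes were called lower in the deposited table and 1 after normexp, after quantile normalization and without B6 015, and 1 was called higher without NZO 007. Of 14 tested genes of bile acid synthesis 1 was called lower, Cyp39a1, an oxysterol hydroxylase, by -5.64 (standard error 0.14, limma adjusted p = 2.3e-07), and 0 were called higher (median 0.10). At an unadjusted p of 0.05, limma gave 3 higher and 3 lower and the test of the methods 3 and 2, and 1 gene was called higher after normexp, in the deposited table, without B6 015 and when probes were averaged. Cyp39a1 was read at its 1 tested probe, and the bases of NZO under that probe were not analysed. Akr1d1, Hsd3b7 and Hsd17b4 are in this list and in one of those above. Of 14 tested xenobiotic and oxidative stress genes 2 were called lower and 0 higher, while 3 were lower and 0 higher at an unadjusted p of 0.05 by either test (median -0.04). The called genes were Nr1i3, the receptor CAR, at -1.01 (standard error 0.16, limma adjusted p = 0.00337), and Hmox1, heme oxygenase, at -0.93 (standard error 0.15, limma adjusted p = 0.00464). The second probe of Hmox1 gave -0.24, and both calls were lost with the slide as a fixed term, within either scan day and with the mouse number as a block. When the probes of each gene were averaged, 1 gene of this list was called lower.

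**Figure D3:**
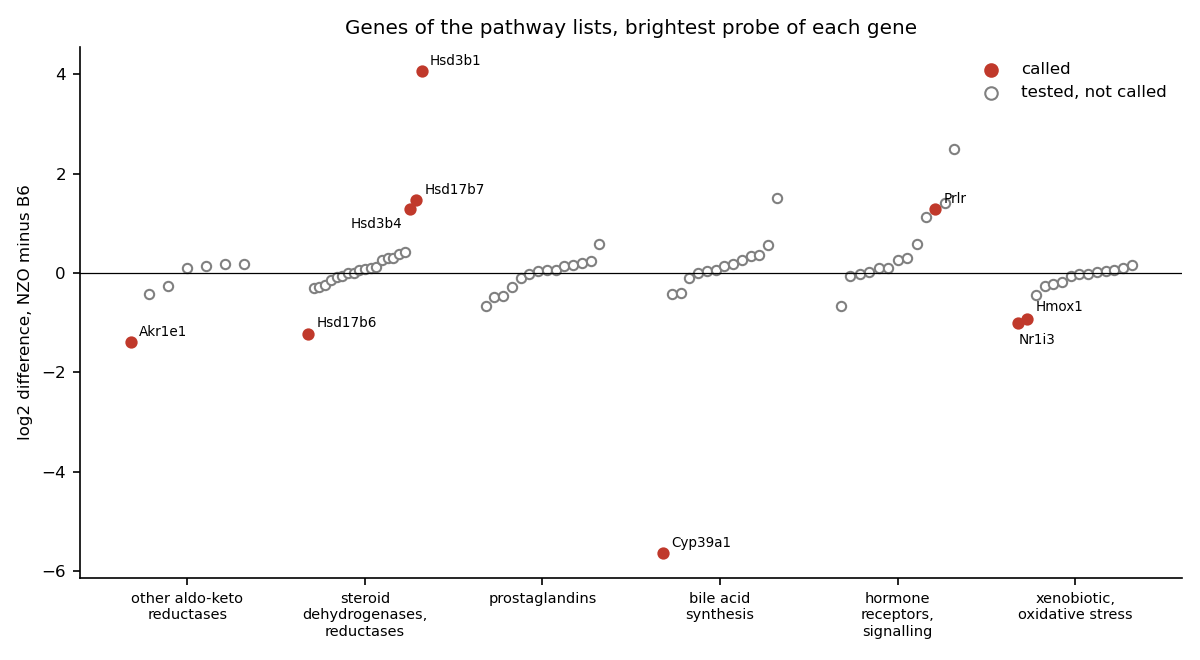
Log2 difference, NZO minus B6, of tested genes in 6 pathway lists, each at its brightest probe, sorted within each list; filled points are called genes and open points are not. Most genes lie near 0, with Cyp39a1 at -5.64 as the lowest; B6 was at background for Hsd3b1, for which the plotted value is a difference of measured means and no bound.

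Markers of other cells were read beside these results, because Akr1c18 is known from ovary and adrenal and Akr1c21 from kidney. The 6 hepatocyte markers were above background, with Alb brightest, and their summed signal was 12.17 to 12.26 in NZO and 11.98 to 12.21 in B6 (log2, same scaling). Of 7 adrenal cortex markers, Cyp11a1, Cyp11b1 and Cyp11b2 were above background on no array and 0 of 3 tested were called. The sum, led by Cyp21a1, was 2.63, 3.12, 3.63 and 3.51 in NZO 003, 007, 009 and 011, and 3.03, 2.63, 2.89 and 3.89 in B6 009, 010, 011 and 015. The strains overlapped, and B6 015, with the highest Akr1c18 of its strain, also had the highest sum. In that mouse Cyp21a1 read 3.74, against 2.09 to 2.75 in the other B6 mice. Nr5a1 read 0.33 in B6 015, within the B6 range of 0.10 to 0.41, and Star -2.69, against -2.71 in B6 011. Any part of adrenal RNA in the level of Akr1c18 was not tested. Of 6 kidney markers Umod was above background on no array, and the sum, led by Slc22a6, ran from -0.94 to 1.66 in NZO and from -0.83 to 1.07 in B6.

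Markers of 2 cell types separated the strains without overlap, as Akr1c18 and Akr1c19 did. Red blood cell markers, led by Hba-a1, summed to 8.19 to 8.88 in NZO and 7.28 to 7.70 in B6, and 2 of 4 tested were called higher. Cholangiocyte markers, led by Spp1, summed to 0.77 to 1.35 in NZO and 1.79 to 2.46 in B6, and 2 of 4 tested were called lower, Sox9 (-1.47) and Spp1 (-0.89). Of all genes 4.42% were called higher and 5% lower, and the strains did not overlap at 22% of all tested probes. The part of these 2 cell types in the Akr1c differences was not tested. Skeletal muscle markers, led by Myh4, stood at 4.03 in NZO 007 and between -2.43 and -1.37 in the other NZO mice, and at -1.5, 2.46, -0.02 and 0.47 in B6 009, 010, 011 and 015. NZO 007 was also the lowest NZO mouse for Akr1c6, Akr1c12, Akr1c13, Akr1c14 and both probes of Akr1c20. B6 010, with the highest muscle sum of its strain, was the highest B6 mouse for Akr1c6 and Akr1c12 and the lowest for Akr1c13. It was within the B6 range for Akr1c14 and both probes of Akr1c20, and the part of muscle RNA was not tested. For adipocytes Adipoq, Plin1 and Lep were above background on no array, and the sum, led by Fabp4, was 1.65 to 2.20 in NZO and 2.12 to 2.29 in B6. For exocrine pancreas Cela3b, Pnlip, Cpa1 and Prss2 were not, with Ctrb1 brightest and sums of 0.44 to 1.20 in NZO and 0.37 to 0.81 in B6. Leukocyte markers, led by Cd3e, summed to 3.44 to 4.23 in NZO and 3.44 to 3.74 in B6, with 1 of 5 called lower, Itgax, which passed the filter through B6 and was above background on 6 of 8 arrays.

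**Figure D4:**
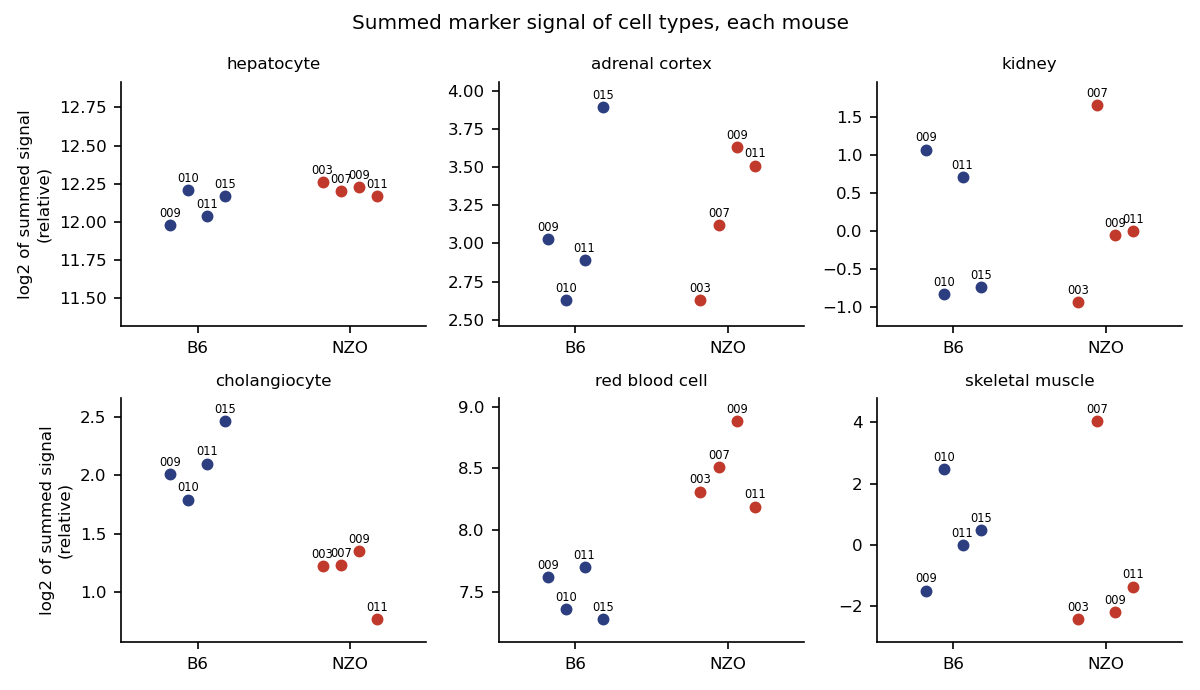
Summed signal of marker genes (log2, scaled like single probes) for 6 cell types, with a point for each mouse labelled by its number, B6 in blue and NZO in red; the y axes differ between panels. Cholangiocyte and red blood cell sums do not overlap between strains, and B6 015 is highest for adrenal cortex and cholangiocyte markers.

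The arrays were spread over 5 slides and 2 scan days, and slide 1 held NZO 003, B6 010 and B6 015. Within scan day 1 (3 NZO and 2 B6 arrays) Akr1c18 was 5.05 higher in NZO, and within scan day 2 (1 NZO and 2 B6 arrays) it was 6.16 higher. With the slide as a fixed term, where slide 1 alone gives the strain difference, it was 5.14. For Akr1c19 these values were 2.08, 1.98 and 2.16. Akr1c18 was 4.66 higher after normexp background correction and 4.91 in the deposited table. Over the settings other than leaving out a mouse, Akr1c12 ranged from -0.83 to -0.21, Akr1c14 from -1.03 to -0.32 and Akr1c13 from 0.31 to 0.90, so their signs held and their sizes did not.

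**Figure D5:**
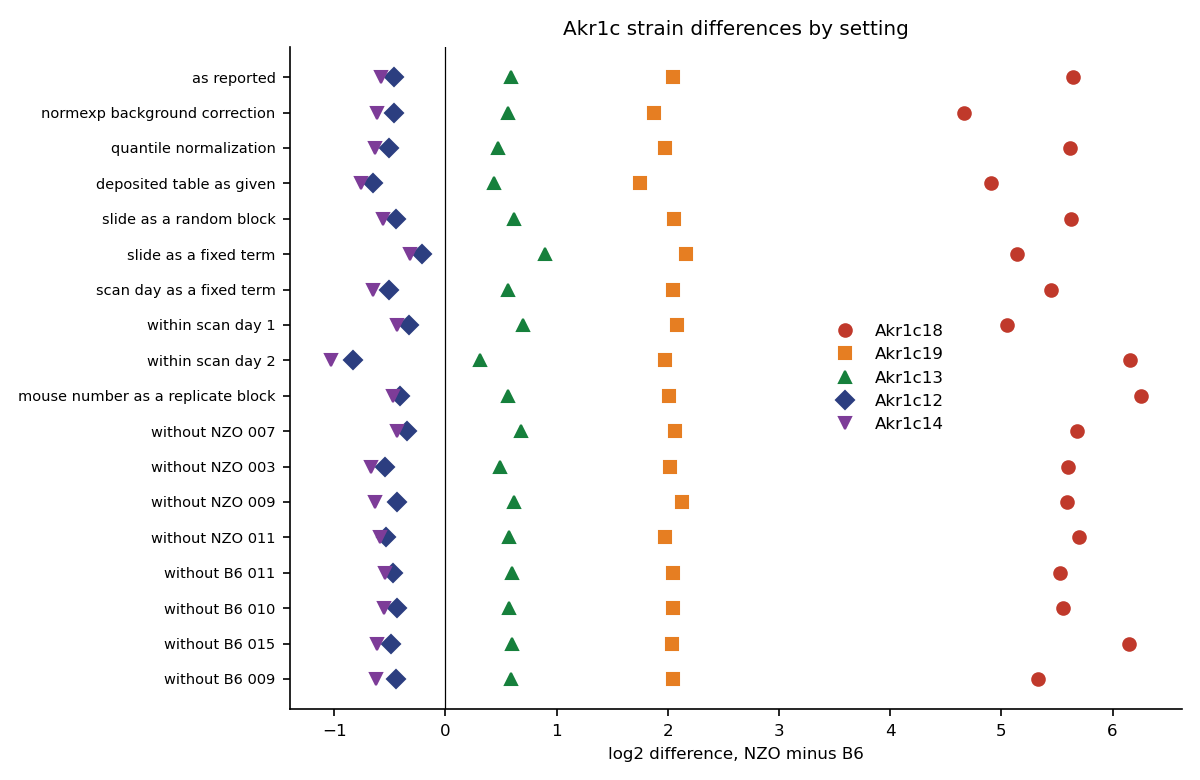
Log2 difference, NZO minus B6, of 5 Akr1c probes under each setting, with a row for each setting and a symbol for each gene. Akr1c18 ranges from 4.66 to 6.26 and Akr1c19 from 1.75 to 2.16, and no symbol crosses 0.

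The transcripts most like Akr1c18 were sought among the 20122 other genes, as a description. Over the 8 arrays, which the strain difference dominates, the highest Pearson r were those of Mx1, an interferon-induced GTPase (0.997, NZO minus B6 2.55), Gm8479 (0.997, 1.34), Pla2g7, which inactivates platelet-activating factor (0.993, 2.53), Gm8995 (0.992, 2.66) and a probe without a gene match (0.992, 1.25). For deviations from the strain means, the highest were Adgra2, an adhesion receptor (0.992), Megf6 (0.989), the unmatched probe A_55_P2028362 (0.983), Adamdec1, a metalloprotease (0.981), and Gm11127 (0.980). In each of these, B6 015 was the highest of the B6 mice, as in Adgra2 with 0.45 in B6 015 and -0.68 to -0.47 in the other B6 mice. The likeness of the second group thus follows 1 mouse.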

How the data were processed

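Liver RNA of 4 NZO and 4 B6 mice was hybridised to 1-colour Agilent arrays (59305 spots besides controls). The authors deposited scanner output and a further value table. Per the file headers, the intensity values are output of Agilent's Feature Extraction, version 11.0.1.1, while the submitters' processing notes name version 9.1; the processed signal is corrected for background within an array and not scaled between arrays. The latter is named as normalized but held the raw median intensity of every spot (tolerance 0.01).

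Controls and outliers (96 to 137 spots on an array) were removed, log2 processed signals were set relative to the 75th percentile of each array, and spots of a probe were averaged. No spot was saturated. The 27639 probes that were above background on every array of NZO, of B6 or of both were compared with limma 3.58.1 (R 4.3.3, with its package data.table, version 1.17.8) without a block and adjusted by Benjamini-Hochberg over all of them. Probes were called at an adjusted p of 0.05 and a log2 difference of 0.7, the fold threshold of the study's methods. Each array is taken as a separate mouse from its label, and litters are not given in the sources used here.

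Probes were matched to the RefSeq gene table (GRCm38.p6) by their accession (27656), another accession (85), symbol (3347) or synonym (312), and 24281 had no match. Probe coordinates are those of the files (mm9), gene and upstream positions those of GRCm38, and none were converted. A gene of a list was read at its brightest tested probe. Named were all probes of the 8 genes, all other aldo-keto reductases, up to 3 called genes with the largest rise and fall of each list, called neighbours within 1 Mb, the brightest and undetected markers and the 5 genes most like Akr1c18 by each measure; other genes (uncalled neighbours, Stat5b, Socs2, Pgr and called markers) were chosen after their values were seen. The values of 1 listed gene are not reported here, and it is part of the counts and median of its list. The 8 genes and all lists were chosen with earlier results of these data known. Upstream windows end at the start of the RefSeq promoter table, which for some genes lies inside the outer gene bounds, and were compared with Biopython 1.88. Plots were made with Python 3.11.15, pandas 2.3.3 and matplotlib 3.10.9. Alternatives were normexp (offset 50), quantile normalization, the deposited table, no filter on dim probes, slide, scan day or mouse number as a block or term, each scan day alone, unadjusted p, the methods' t-test with Welch correction, the mean over a gene's probes, and leaving out each mouse.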

Additional observations from a re-analysis of the deposited data

Results flagged for a closer look

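In 3 of 38 strain groups of 4 arrays, the highest or lowest mouse stood apart from the other mice of its strain, and chance gives this in about 1 of 20 groups. At the probe A_51_P382764 of Akr1c20, NZO 007 read 6.78 and the other NZO mice 7.04 to 7.08. At Akr1c19, B6 015 read 3.02 and the other B6 mice 3.07 to 3.07, which were nearly identical. At Hsd17b6, B6 015 read 3.69 and the other B6 mice 2.69 to 2.77.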

How the results depend on the processing

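Akr1c18 was called higher in NZO under each alternative that refitted its probe (the mean over probes did not, and scan day 2 holds 1 NZO array), and Akr1c19 under all of these but the replicate block, where it was 2.01 higher and not called. These differences chose the cluster. The mouse numbers are shared only by 009 and 011 (correlation of deviations -0.26 and 0), so the samples share only a number. With this replicate block 72 probes were called higher and 134 lower, against 1198 and 1460 without it, 1 Akr1c probe was called higher, and 0 genes of all lists were higher and 1 lower, against 5 and 5. The number of probes called higher and lower was 615 and 583 after normexp, 575 higher in the deposited table, 497 higher with the slide as a fixed term, 800 lower within scan day 1, 277 and 554 within scan day 2, and 890 lower by the adjusted Welch test. In the deposited table the median of all tested probes shifted to -0.15, and 1 Akr1c probe was called lower (Akr1c14, -0.76). Akr1c6 changed sign to -0.08 after normexp, -0.06 after quantile normalization, -0.25 in the deposited table and -0.14 within scan day 2, and the probe A_51_P382764 of Akr1c20 to -0.06 after normexp, -0.11 after quantile normalization, -0.23 in the deposited table and -0.25 within scan day 2. Of all list genes, 2 were higher and 1 lower with the slide as a fixed term, 2 lower within scan day 1, 1 higher and 1 lower within scan day 2, and 3 lower by the adjusted Welch test. The cause of these changes was not tested, although the settings by slide, day and number rest on fewer arrays.

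With each mouse left out in turn, 1055 to 1219 probes were called higher and 1221 to 1464 lower, 2 Akr1c probes were called higher and 0 to 1 lower, and 4 to 6 list genes were higher and 4 to 6 lower. The difference ranged from 5.33 to 6.15 for Akr1c18, 1.98 to 2.13 for Akr1c19, 0.49 to 0.68 for Akr1c13, -0.54 to -0.34 for Akr1c12, -0.67 to -0.43 for Akr1c14, -0.03 to 0.05 for Akr1c6, -0.01 to 0.09 for A_51_P382764 and -0.78 to -0.54 for A_51_P276802, which was called lower without NZO 011 and without B6 015. Signal near background limits what can be read for Akr1c21 and for the B6 levels of Akr1c18.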
